A study of Mus musculus with 8 samples.

Results

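The comparison described here asks what the β2 adrenergic agonist fenoterol, given before LPS, did to the chromatin of LPS-stimulated macrophages. It sets the 2 libraries of cells given fenoterol and then LPS against the 2 libraries of cells given LPS alone, paired by mouse, which is 4 of the 8 libraries of the series. The assay was ATAC-seq, which uses the Tn5 transposase to cut and tag open DNA. The cells were macrophages grown from the bone marrow of WT (wild-type) C57Bl/6 mice in CMG medium with serum. Both groups had 100 ng/mL LPS for 1 h. The first group also had 1 µM fenoterol for 15 min before it. The labels give no mock pre-treatment for the LPS group and no age or sex of the animals. The other 4 libraries, from unstimulated cells and from cells given fenoterol alone for 15 min, came from the same 2 mice and are used for the shared estimate of spread and for the level of each region without LPS. All 74207 peaks of the deposited table belong to the comparison, and 66786 of them passed the filter on low values and were tested. Positions are on build mm9. The annotation at hand was of a later build, so regions are given by the table's peak names and positions, without gene names or sequence, and the labelled cell type was not checked against marker genes.

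Fenoterol binds the β2 adrenergic receptor, a Gs-coupled receptor that raises cyclic AMP and activates protein kinase A, which phosphorylates transcription factors of the CREB family. LPS acts through Toll-like receptor 4 and activates NF-κB, AP-1 and the MAP kinases, which open many enhancers in macrophages within the first hour. Cyclic AMP is known to lower some LPS-induced genes of macrophages and to raise others.

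The libraries compared held 3521741 and 3637389 reads in peaks with LPS and 3918319 and 3535300 with fenoterol + LPS, for mouse 1 and mouse 2. The median peak held 24 to 28 reads in each. The 2 libraries of a group differed by no more than counting error: the chi-square of reads over its degrees of freedom was 0.89 for the LPS pair and 0.938 for the fenoterol + LPS pair. Both lie below 1, the value for independent counts, so the counting model does not hold exactly. The reason was not tested. Each group has only 1 pair, so no pair was merged. Pairs across the groups gave 1.13 to 1.37, within a mouse as well as between mice. The groups thus differed by more than their replicates did.

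Accessibility differed little between the groups at most peaks. Differences are of log2(RPKM + 4), with RPKM (reads in a peak relative to its length and to the library's reads in peaks) scaled between libraries. The added 4 damps the differences of low peaks. The median difference between fenoterol + LPS and LPS was -0.0023 in mouse 1 and 0.0014 in mouse 2. Within 2-fold lay 98.4% of the tested peaks in mouse 1 and 98.7% in mouse 2. The SD of the difference over peaks was 0.36 in mouse 1 and 0.35 in mouse 2, where counting error alone gives 0.327 and 0.33. Single peaks therefore stand out only where the difference is large or the peak is deep.

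No peak passed the threshold of 0.05 by limma-trend on all 8 libraries, with Benjamini-Hochberg adjustment: 0 of 66786 were called (0%), and the smallest adjusted p was 0.163. An unadjusted p under 0.05 was found at 4447 peaks, where 5% of the tested peaks is 3339; 2842 of the 4447 were higher with fenoterol and 1605 lower. The count depended on the test. Limma voom on the recovered reads called 440 peaks (0.659%), of which 410 were higher (0.614%) and 30 lower (0.0449%) with fenoterol + LPS. Limma-trend on the 4 libraries with LPS called 256 peaks (0.383%), 228 higher (0.341%) and 28 lower (0.0419%). With the mouse as a block it called 1996 (2.99%), 1542 higher (2.31%) and 454 lower (0.68%), in a fit with 1 residual degree of freedom. In each of these fits more peaks were higher than lower. The voom count mostly fell when 1 of the 4 compared libraries was dropped. That leaves 1 library in its group, which widens the error of the difference whichever library is dropped. Dropping LPS mouse 1 left 19 calls and dropping LPS mouse 2 left 20, whereas 60 were left when fenoterol + LPS mouse 1 was dropped and 441 for mouse 2. Limma-trend gave 23 calls when unstimulated mouse 1 was dropped and 20 for unstimulated mouse 2.

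Among peaks higher in both mice, the smallest unadjusted p of limma-trend was at a region on chromosome 2 at 148356135 to 148356691 (peak41814), whose adjusted p was shared by the next 4. It had 40.7 and 35.1 RPKM with LPS and 76.3 and 65.2 RPKM with fenoterol + LPS, for mouse 1 and mouse 2. Unstimulated cells had 26.8 and 26.4 RPKM and cells given fenoterol alone 35.5 and 34.6 RPKM. The order was the same in both mice: lowest unstimulated, and highest with both agents. The log2 difference between fenoterol + LPS and LPS was 0.83 (SE 0.14, limma-trend adjusted p = 0.163, voom adjusted p = 8.69e-05).

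At peak52643, on chromosome 5 at 38945126 to 38945685, the 6 libraries without the combination were all below 20 RPKM. They had 13.4 and 14.6 RPKM unstimulated, 12.9 and 16.5 RPKM with fenoterol, and 19.7 and 13.6 RPKM with LPS. With both agents the region had 47.5 and 39.9 RPKM, a log2 difference from LPS of 1.22 (SE 0.21, limma-trend adjusted p = 0.163, voom adjusted p = 1.86e-06, below that of peak41814). Both libraries with the combination lay far above the other 6. The recovered reads behind it were 39 and 28 with LPS against 105 and 80 with both, with exact 95% Poisson intervals in mouse 1 of 27.7 to 53.3 and 85.9 to 127. These intervals cover counting error only.

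At the other 3 of the 5 leading higher peaks, LPS alone gave less than unstimulated cells in both mice. Peak48573, on chromosome 4 at 55668276 to 55668588, had 31.1 and 31.6 RPKM unstimulated, 27.1 and 31.3 RPKM with fenoterol, 25.4 and 22.6 RPKM with LPS and 45.3 and 48.2 RPKM with both. Peak10441, on chromosome 11 at 33564886 to 33565256, had 30.3 and 27.3 RPKM unstimulated, 21.2 and 23.6 RPKM with fenoterol, 23.7 and 26.4 RPKM with LPS and 46.4 and 50.5 RPKM with both. Peak26932, on chromosome 16 at 4678122 to 4678354, had 22.5 and 23.8 RPKM unstimulated, 21.6 and 26.6 RPKM with fenoterol, 13.4 and 15.2 RPKM with LPS and 32.7 and 32.4 RPKM with both. At peak48573 and peak26932 the LPS libraries were the lowest of the 8, at peak10441 fenoterol alone was as low, and at all 3 the libraries with both agents lay above the other 6. Their log2 differences from LPS were 0.86, 0.85 and 1.00 (limma-trend adjusted p = 0.163 for each), and voom called the first 2 of them (adjusted p = 0.0134 and 0.00535) but not peak26932 (0.0674).

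Over the 12 higher peaks with the smallest p that moved the same way in both mice, the log2 difference was 0.69 to 1.22 and the limma-trend adjusted p 0.163 to 0.267. Their mean levels ran from 9.09 to 37.9 RPKM with LPS and from 25.3 to 70.8 RPKM with both agents. The LPS and fenoterol + LPS libraries did not overlap at any of the 12. The 12 were chosen on this difference with the same sign in both mice, which favours both that and the orders that follow. At 10 of them the combination gave the highest 2 of the 8 libraries, where 9.55% of all tested peaks had that order. At 6 both LPS libraries lay below the 4 libraries without LPS and were the lowest of the 8, against 4.54% of all tested peaks. Voom called 9 of the 12, and limma-trend on the 4 libraries with LPS called all 12. Of all tested peaks these fits called 0.614% and 0.341% higher. They use the libraries that chose the 12, so these calls are no separate support.

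Some of the leading lower peaks had their highest values with LPS alone, as at peak5050, on chromosome 1 at 192991601 to 192992401. It had 7.46 and 7.51 RPKM unstimulated, 9.80 and 12.5 RPKM with fenoterol, 38.9 and 33.2 RPKM with LPS and 9.16 and 11.8 RPKM with both. The LPS libraries stood apart from the other 6, and the level with both agents was near that of fenoterol alone. The reads recovered were 110 and 98 with LPS and 29 and 34 with both. The log2 difference between fenoterol + LPS and LPS was -1.47 (SE 0.26, limma-trend adjusted p = 0.163), and its voom adjusted p was 2.51e-10.

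A neighbouring pair on chromosome 13 also had its highest values with LPS alone. Peak20574, at 111192239 to 111192562, had 9.24 and 5.21 RPKM unstimulated, 9.71 and 3.98 RPKM with fenoterol, 29.8 and 23.5 RPKM with LPS, and 6.26 and 6.04 RPKM with both. Its log2 difference was -1.59 (SE 0.35, limma-trend adjusted p = 0.321, voom adjusted p = 0.00255). Peak20573, at 111191792 to 111191991, less than 1 kb away and named after its values were seen, had 3.75 and 7.24 RPKM unstimulated, 3.15 and 6.45 RPKM with fenoterol, 34.1 and 25.9 RPKM with LPS and 14.0 and 5.60 RPKM with both. They form the only pair of voom-called lower peaks within 50 kb of each other. Peak17694, on chromosome 13 at 18068755 to 18068963, also had its highest values with LPS, 39.4 and 27.4 RPKM, against 13.4 and 10.7 RPKM with both, and its voom adjusted p was 0.0508. At peak53890, on chromosome 5 at 99644315 to 99644666, the level with both agents lay between: 27.6 and 27.4 RPKM unstimulated, 78.2 and 72.5 RPKM with LPS, and 42.5 and 52.4 RPKM with both.

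Others were lowest with both agents, without both LPS libraries lying above all the others, as at peak39550, on chromosome 2 at 75534462 to 75534847. It had 40.7 and 32.5 RPKM unstimulated, 31.0 and 27.4 RPKM with fenoterol, 33.8 and 34.5 RPKM with LPS and 14.4 and 15.9 RPKM with both. Each agent alone left this region within the range of the unstimulated libraries or a little below it, and the 2 libraries with both lay below the other 6. Its log2 difference was -0.99 (SE 0.16, limma-trend adjusted p = 0.163), and voom gave an adjusted p of 0.00557. Peak6815, on chromosome 10 at 57409932 to 57410406, had 29.9 and 29.4 RPKM unstimulated, 26.5 and 23.8 RPKM with fenoterol, 28.6 and 42.3 RPKM with LPS and 17.1 and 18.2 RPKM with both. Peak42354, on chromosome 2 at 159977751 to 159978304, had 70.2 and 61.7 RPKM unstimulated, 55.6 and 52.0 RPKM with fenoterol, 45.5 and 48.0 RPKM with LPS and 31.5 and 26.2 RPKM with both. At the latter each agent alone gave less than unstimulated cells in both mice, and both together the least. The last of the 5 leading lower peaks, peak20609 on chromosome 13 at 111734947 to 111735146, is 200 bp wide and had 48.8 and 35.0 RPKM unstimulated, 36.3 and 28.4 RPKM with fenoterol, and 45.5 and 44.9 RPKM with LPS against 24.1 and 25.2 RPKM with both.

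Over the 12 lower peaks chosen in the same way, the log2 difference was -1.59 to -0.62 and the limma-trend adjusted p 0.163 to 0.391. At 6 of the 12 both LPS libraries lay above all 4 libraries without LPS and were the highest of the 8, against 4.19% of all tested peaks. At 6 both fenoterol + LPS libraries were the lowest of the 8, against 8.04%. The 12 were chosen on the difference between LPS and the combination, which favours both orders, so these counts are descriptions. Voom called 9 of the 12 and limma-trend on the 4 libraries with LPS called 10, against 0.0449% and 0.0419% of all tested peaks called lower. Here too the calls rest on the libraries that chose the peaks and are no separate support.

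**Figure D1:**
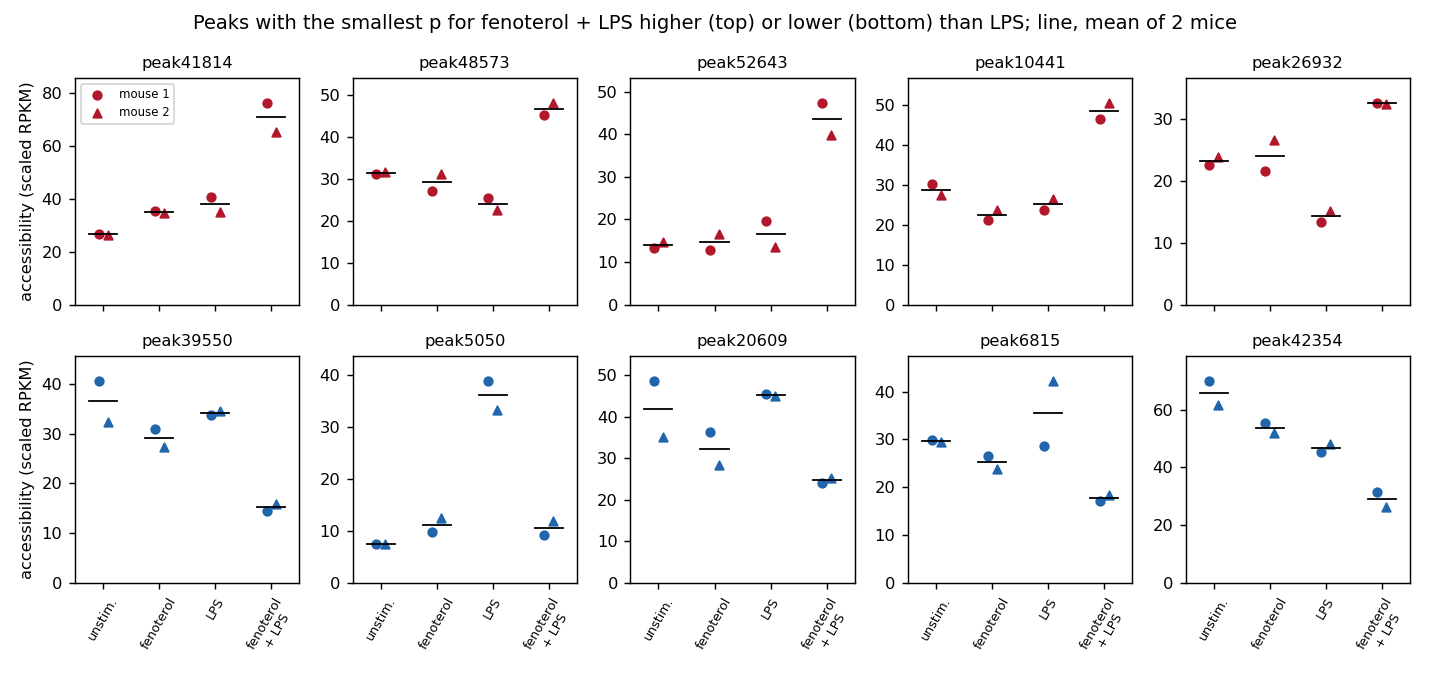
Accessibility (scaled RPKM, linear axis from 0) of the 5 leading higher peaks (top) and the 5 leading lower peaks (bottom) in the 4 conditions; circles are mouse 1, triangles mouse 2 and lines the mean of both. In the top row the fenoterol + LPS libraries lie above all others; in the bottom row peak5050 has high values with LPS alone, and at peak39550 the libraries with both agents are the lowest.

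A second choice of regions, by the size of the smaller of the 2 within-mouse differences, added a few shallow regions. Peak5611, on chromosome 10 at 12598407 to 12598700, had 5.79 and 4.62 RPKM with LPS and 25.9 and 22.8 RPKM with both, log2 differences of 1.61 and 1.64. Peak69633, on chromosome 9 at 50286033 to 50286308, had 7.20 and 5.91 RPKM with LPS and 29.4 and 27.4 RPKM with both, log2 differences of 1.58 and 1.66. Few reads lie behind these values: the first held 6 and 5 reads with LPS and 30 and 24 with both, and the Poisson interval of 6 reads is 2.20 to 13.1. Peak53640, on chromosome 5 at 91303513 to 91303715, had 5.60 and 9.39 RPKM with LPS and 21.3 and 33.1 RPKM with both. It varied without LPS as well, with 14.8 and 1.19 RPKM unstimulated, the latter at the floor of 1 read. Among the lower peaks this choice added peak63178, on chromosome 7 at 117348412 to 117348611, with 15.6 and 13.6 RPKM with LPS and 3.81 and 2.80 RPKM, or 3 and 2 reads, with both. Limma-trend adjusted p for the 4 was 0.286, 0.302, 0.535 and 0.417, and voom called peak5611 (0.00529) and peak69633 (0.00427).

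At least 2-fold in both mice, 60 peaks were higher (0.0898%) and 10 lower (0.015%) with fenoterol + LPS, and 4 went 2-fold in opposite ways. At 1.5-fold the counts were 973 higher (1.46%), 278 lower (0.416%) and 270 opposite. The split between higher and lower peaks depended on the scaling. The values as deposited gave 61 higher and 10 lower at 2-fold and 1001 and 272 at 1.5-fold. Lower peaks made up a larger share after quantile normalization, with 86 and 30 at 2-fold and 1069 and 513 at 1.5-fold, and after cyclic loess, with 41 and 17, and 795 and 377. The 60 higher peaks were low and narrow: 37 of them were in the lowest of 4 equal classes of tested peaks by mean level, and their median width was 293.5 bp against 421 bp for all tested. Nearest the 2-fold bar were peak62270, just inside with log2 differences of 1.17 and 1.00, and peak20054, just outside with 1.23 and 0.995. On the lower side they were peak65233, inside with -1.005 and -1.13, and peak31955, outside with -0.98 and -0.98.

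**Figure D2:**
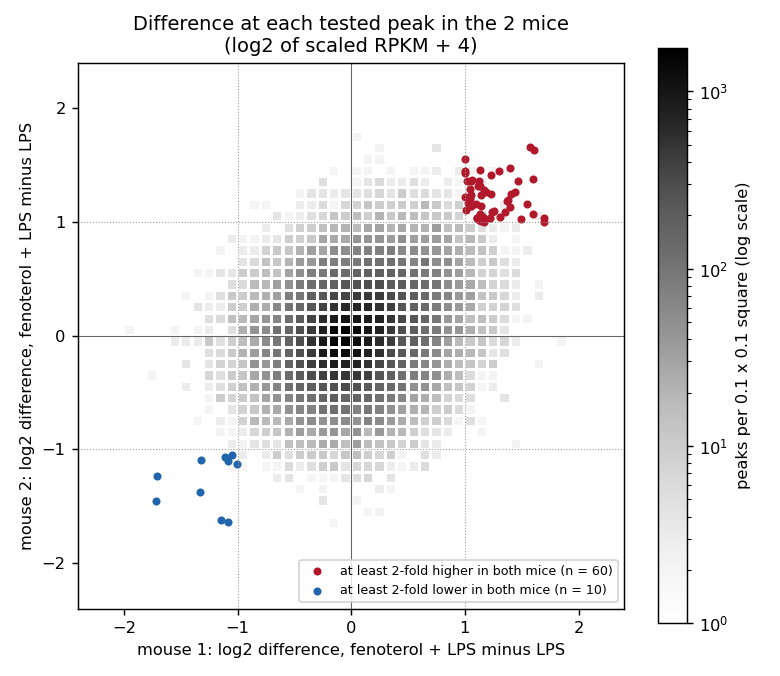
Log2 difference between fenoterol + LPS and LPS at each tested peak in mouse 1 (horizontal) and mouse 2 (vertical), on log2(scaled RPKM + 4); grey squares give the number of peaks on a log scale, red points the 60 peaks at least 2-fold higher and blue points the 10 at least 2-fold lower in both mice. Most peaks lie near 0 in both mice, and the upper right corner holds more peaks than the lower left.

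At the 60 higher peaks the median level was low in every library without the combination. It was 7.72 and 8.91 RPKM in unstimulated cells, 7.63 and 9.94 RPKM with fenoterol, 8.55 and 7.77 RPKM with LPS, and 25.6 and 22.9 RPKM with both, for mouse 1 and mouse 2. At 52 of the 60 both fenoterol + LPS libraries were the highest of the 8, where 9.55% of all tested peaks had that order, and at 8 both LPS libraries were the lowest, against 4.54%. At the 10 lower peaks the median was 7.48 and 12.4 RPKM unstimulated, 10.9 and 12.1 RPKM with fenoterol, 17.2 and 20.8 RPKM with LPS, and 5.71 and 5.17 RPKM with both. At 5 of these 10 the LPS libraries were the highest of the 8, against 4.19% of all tested peaks. At 4 the libraries with both agents were the lowest, against 8.04%. The peaks were chosen on the difference between LPS and the combination, so these medians and counts are descriptions. The filter on low values used the mean of all libraries. Peaks low elsewhere could thus pass it through the combination, which favours low medians in the other libraries at the 60. The 410 peaks that voom called higher were also highest with both agents, but their median with LPS alone lay above that of unstimulated cells in both mice. The medians were 11.3 and 12.5 RPKM unstimulated, 10.7 and 13.4 RPKM with fenoterol, 15.8 and 15.6 RPKM with LPS, and 33.0 and 29.6 RPKM with both.

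**Figure D3:**
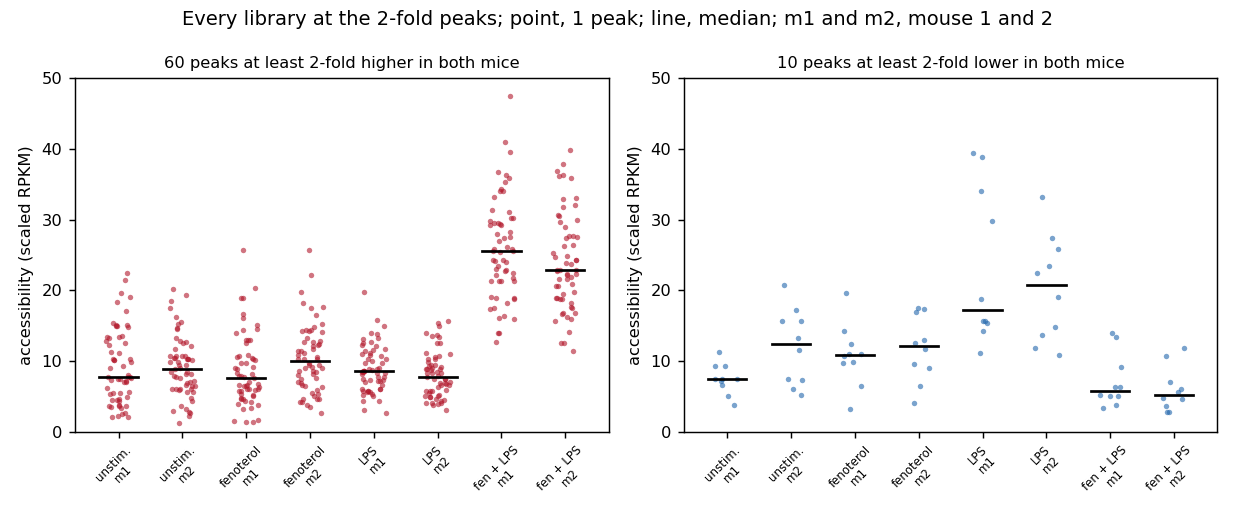
Scaled RPKM in each of the 8 libraries at the 60 peaks at least 2-fold higher (left) and the 10 at least 2-fold lower (right) with fenoterol + LPS than with LPS in both mice; each point is 1 peak and each line the median of the peaks. On the left the 6 libraries without the combination have medians of 7.63 to 9.94 RPKM and the 2 with it 25.6 and 22.9 RPKM; on the right the medians are highest with LPS, at 17.2 and 20.8 RPKM.

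Differences seen in one mouse were found again in the other more often for higher than for lower peaks. In mouse 1, 738 peaks were at least 2-fold higher with fenoterol + LPS, and 563 of them (76.3%) were higher in mouse 2, where 50.1% of all tested peaks were. Their median log2 difference in mouse 2 was 0.32, and 60 were again at least 2-fold higher. Chosen in mouse 2, 536 peaks were at least 2-fold higher, and 421 (78.5%) were higher in mouse 1, against 49.7% of all tested, with a median of 0.41. Of the 309 peaks at least 2-fold lower in mouse 1, 188 (60.8%) were lower in mouse 2, against 49.9% of all tested, with a median of -0.10. Of the 312 chosen in mouse 2, 179 (57.4%) were lower in mouse 1, against 50.3%, with a median of -0.07. Most of these peaks were in the lowest class by mean level, which leaned higher as a whole. Of its peaks chosen as higher in mouse 1, 74.2% were higher in mouse 2, against 54.8% of the class. Of those chosen as lower, 57.6% were lower, against 45.2%. Chosen in mouse 2, the shares were 76.7% against 56.4% and 56.1% against 43.6%. Set against this class, the directions stood closer than against all tested peaks. The 2 libraries that chose the peaks share none with the 2 that measured them, but the difference between the directions itself was not tested. In the other mouse the median was 0.32 and 0.41 for higher peaks, below the 2-fold by which they were chosen, and it was near 0 for lower ones.

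The agreement between mice was closer at deeper peaks. In the 4 classes by mean level, from low to high, mouse 1 and mouse 2 differences had r = 0.197, 0.233, 0.285 and 0.31, over 16696 or 16697 peaks each. These are descriptions across peaks, which share libraries and are not replicates. In the next to highest class, 55 of the 68 peaks at least 2-fold higher in mouse 1 (80.9%) were higher in mouse 2, and 33 of the 37 chosen in mouse 2 (89.2%) were higher in mouse 1. In the highest class 2 peaks in mouse 1 and 0 in mouse 2 were at least 2-fold higher. Peaks chosen in the 4 libraries without LPS were found again less clearly, a difference that was not tested. Of 2130 peaks at least 2-fold higher with fenoterol than without in mouse 1, 1180 (55.4%) were higher in mouse 2, against 49.4% of all tested. The unstimulated library of mouse 1 held only 1426873 reads, less than any other, and its part in this was not tested.

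**Figure D4:**
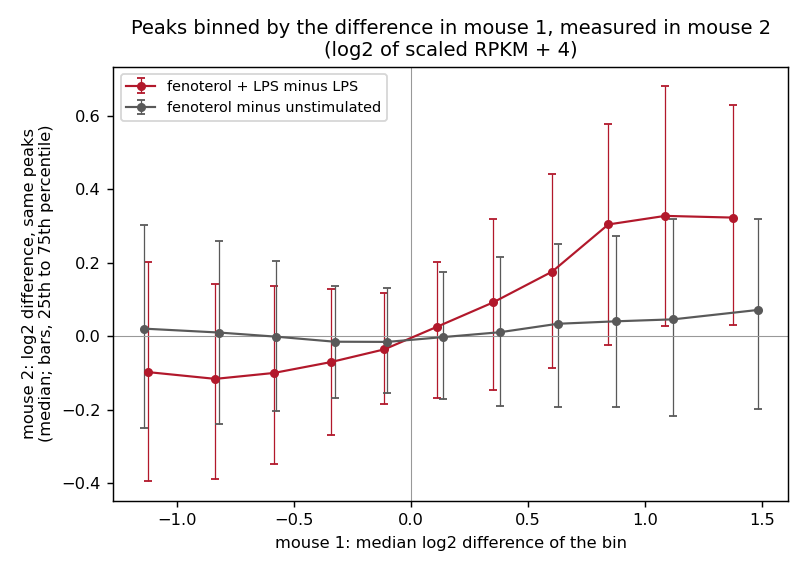
Tested peaks in bins of their log2 difference in mouse 1 (horizontal, bin median) with the log2 difference of the same peaks in mouse 2 (vertical; points are medians, bars the 25th to 75th percentile of peaks), for fenoterol + LPS minus LPS (red) and fenoterol minus unstimulated (grey). With LPS the median in mouse 2 goes from about -0.10 in the lowest bin to 0.33 and 0.32 in the top 2, whereas without LPS it stays between -0.02 and 0.07.

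Fenoterol without LPS, measured in libraries that the comparison does not share, gave small differences at these peaks. Of the 410 that voom called higher, 138 (33.7%) were also higher with fenoterol than in unstimulated cells in both mice, where 23.8% of all tested peaks were, and 87 (21.2%) were lower in both, against 28.3%. The lean was in mouse 2, where 64.9% were higher against 49.4% of all, and not in mouse 1, where 47.6% were higher against 46.2%. The median log2 difference of fenoterol alone at these peaks was -0.02 in mouse 1 and 0.10 in mouse 2. Of the 30 lower peaks, 16 (53.3%) were lower with fenoterol alone in both mice, against 28.3% of all tested, and 5 (16.7%) higher in both, against 23.8%. Here the lean was in both mice: 36.7% were higher in mouse 1 and 26.7% in mouse 2. The median log2 difference of fenoterol alone was -0.120 and -0.115. At the 60 peaks 2-fold higher, 16 (26.7%) were higher and 16 (26.7%) lower with fenoterol alone in both mice, near the shares of all tested peaks. Over all tested peaks, the difference in LPS-treated cells correlated with that of fenoterol alone at r = 0.0148 and 0.0493 within mouse 1 and mouse 2 and at 0.0505 and 0.0136 between them.

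Whether fenoterol acted differently with and without LPS was tested as an interaction. Limma-trend called 0 of 66786 peaks (0%), and the smallest adjusted p was 0.262; at 4225 peaks the unadjusted p was under 0.05. Voom called 4, and limma-trend with the mouse as a block 1. The count was 278, with 142 higher and 136 lower, when unstimulated mouse 2 was dropped, which leaves the shallow library alone in its group. At peak5611 the log2 difference was 1.62 with LPS and -0.46 without, and at peak5050 it was -1.47 with LPS and 0.39 without (limma-trend interaction adjusted p = 0.433 and 0.372).

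Strong and wide peaks were more often lower than higher with fenoterol + LPS, and weak ones more often higher, by a small shift that depended on the scaling. In the highest class by mean level, 39.4% of peaks were lower in both mice and 21.3% higher in both, against 29.2% and 29.0% of all tested. In the lowest class 22.7% were lower and 33.9% higher. Of the 3205 peaks over 1000 bp, 51.0% were lower in both mice and 13.5% higher. The shifts were small, with medians of -0.055 and -0.0224 in the highest class and -0.0755 and -0.0454 in the wide peaks. The upper tail was also shorter: the 99th percentile of RPKM was 90.1 and 86.9 with LPS and 84.7 and 84.6 with both. After cyclic loess the highest class had 29.3% lower and 28.5% higher, the lowest 28.2% and 28.1%, and the wide peaks 34.8% and 23.1%. After quantile normalization the highest class had 35.2% and 24.1%. The median of the next to highest class then turned from 0.00926 and 0.00143 to -0.0295 and -0.0232, and that of the class below it turned in mouse 1, from 0.0311 to -0.0133.

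**Figure D5:**
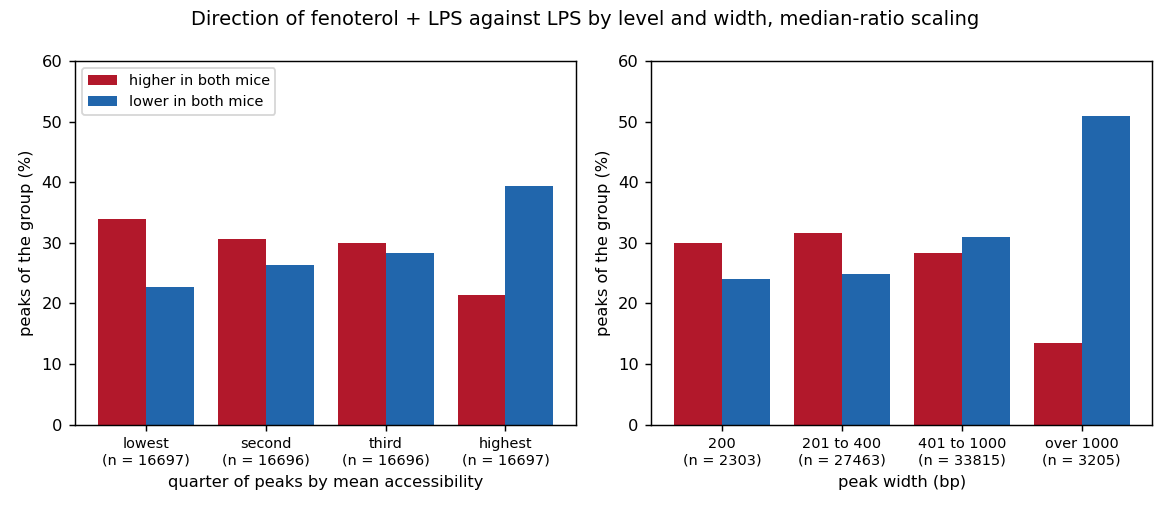
Share of tested peaks (%, bars from 0) that were higher (red) or lower (blue) with fenoterol + LPS than with LPS in both mice, by 4 equal classes of mean accessibility (left) and by peak width in bp (right), with median-ratio scaling. Higher peaks exceed lower ones in the lowest class (33.9% against 22.7%) and lower exceed higher in peaks over 1000 bp (51.0% against 13.5%), while after cyclic loess the lowest class has 28.1% against 28.2% and the wide peaks 34.8% lower against 23.1% higher.

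Called regions were mostly single, but voom called only 0.614% of all tested peaks higher. Few called neighbours occur at such a share, so the count of single regions says little about them. Of the 410 higher voom peaks, 386 had no other within 50 kb, 9 groups had 2 and 2 groups had 3. One group of 3 lay on chromosome 9 between 50286033 and 50305931 and was made of all 3 tested peaks of that span. A span starts and ends at a called peak by its definition. Beside peak69633, peak69634 had 14.6 and 14.0 RPKM with LPS and 28.7 and 27.6 RPKM with both, and peak69635 had 13.2 and 8.21 RPKM with LPS and 25.1 and 23.0 RPKM with both. Unstimulated cells had 2.62 to 9.93 RPKM at the 3 peaks. That was less than with LPS in both mice at peak69633 and peak69634, but at peak69635 in mouse 1 alone, since mouse 2 had 9.93 RPKM unstimulated and 8.21 RPKM with LPS. The other group, on chromosome 2 between 172227985 and 172237100, held 3 of the 4 tested peaks. Peak42925 had 19.5 and 32.0 RPKM with LPS and 59.7 and 49.4 RPKM with both, peak42927 had 17.8 and 13.6 RPKM and 38.8 and 28.8 RPKM, and peak42928 had 20.2 and 21.6 RPKM and 45.3 and 36.1 RPKM. In each of the 6 the fenoterol + LPS libraries lay above the LPS libraries, an order favoured by their choice as peaks called higher. By limma-trend the adjusted p of the 6 was 0.302 to 0.552.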

How the data were processed

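ATAC-seq libraries of 2 mice in 4 groups (8 in all) were used. The submitters' processing notes name cutadapt, Bowtie2, MACS2, HOMER and build mm9. Versions, duplicate removal, the Tn5 shift and whether peaks were called on pooled libraries are not stated in them. The authors deposited 1 RPKM value per peak and library. Multiplied by width, 100% of values gave whole reads within 0.01, so reads were recovered. Library sums are those expected if peaks without reads were set to 1 read.

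RPKM was scaled by median-ratio size factors (0.94 to 1.04), and log2(RPKM + 4) was used. Left out were 7421 peaks, the 10% with the smallest mean (below 9.62 RPKM). The test was limma-trend (limma 3.58.1, R 4.3.3) with 4 group means over 8 libraries, two-sided, Benjamini-Hochberg threshold 0.05; the fit had 4 residual and 16.4 prior degrees of freedom, and voom 4 and 138. Tests thus rest mostly on a spread shared over peaks. Values relative to reads in peaks do not show a shift common to all.

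By the labels, libraries with 1 mouse number come from 1 animal and are paired; mouse differences correlated across groups at only 0.0223 to 0.0713. In each direction the named peaks were the 12 with the smallest p that moved the same way in both mice, the 3 with the largest smaller difference, and voom-called groups of at least 3 within 50 kb; others named by position were chosen after their values were seen. The members, lists and tests were chosen with earlier results of these data known. In reads simulated for this comparison at 66786 peaks, the share of changes found at 1.5-fold was 12.9% by limma-trend and 14.5% by voom. At 2-fold it was 29.7% and 54.7%, and at 3-fold 56.5% and 77.4%; there were 2 and 3 false calls. Without changes neither called a peak. The simulated spread between replicates was taken from the LPS and fenoterol + LPS pairs, which differed by no more than counting error. It was used for all 8 libraries, so a wider spread in the other groups is not in these shares or false calls. Gene lists, cell markers and motifs were not used here, for want of an mm9 annotation.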

Additional observations from a re-analysis of the deposited data

Results flagged for a closer look

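At 4 of the 24 peaks with the smallest p, both mice went one way with fenoterol in LPS-treated cells and the opposite way with fenoterol in cells without LPS. They were 3 of the 12 higher peaks and 1 of the 12 lower. More peaks went the same way in both mice with fenoterol alone: 5 of the 12 higher and 7 of the 12 lower. Of all tested peaks, 28.3% were lower and 23.8% higher with fenoterol alone in both mice. The count of opposite peaks did not exceed those shares, and the counts going the same way did, which was not tested. At each of the 4 the interaction did not pass the limma-trend threshold. At peak48573 on chromosome 4 the log2 difference was 0.86 with LPS and -0.09 without, an interaction of 0.95 (limma-trend adjusted p = 0.433). Without LPS it was -0.17 in mouse 1 and only -0.01 in mouse 2. At peak10441 on chromosome 11 it was 0.85 and -0.31, an interaction of 1.17 (adjusted p = 0.269). At peak69127 on chromosome 9, at 32517137 to 32517802, it was 0.89 and -0.16, an interaction of 1.05 (adjusted p = 0.433). Peak5050 on chromosome 1 went the other way, with -1.47 with LPS and 0.39 without, an interaction of -1.86 (adjusted p = 0.372). The time since fenoterol differed between the cells with and without LPS, by the 1 h of LPS, and its part was not tested.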

How the results depend on the processing

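The number of peaks past the threshold for fenoterol + LPS against LPS, 0 by limma-trend on all 8 libraries, was also 0 on the values as deposited, after cyclic loess, with a pseudocount of 0.8, with no filter or the lowest 25% left out, without a mean trend and with the mouse as a block on 8 libraries. It was 2 after quantile normalization and 3 with a pseudocount of 20. By voom it was 440, and 700 with the mouse as a block. On the 4 libraries with LPS it was 256 by limma-trend and 1996 with the block, and 781 by voom and 1284 with the block, a fit added after the data were seen. The block paired the libraries of 1 mouse. Leaving out 1 library gave 0 to 23 peaks by limma-trend (23 and 20 without unstimulated mouse 1 and 2). By voom it gave 646 and 639 without unstimulated mouse 1 and 2, 472 and 473 without fenoterol, 19 and 20 without LPS, and 60 and 441 without fenoterol + LPS. The interaction count of 0 was 1 with the mouse as a block, 4 by voom, 20 by voom with the block, and 0 to 278 by limma-trend with 1 library left out. By voom it was then 19 and 20 without unstimulated mouse 1 and 2, 2 and 2 without fenoterol, 1 and 5 without LPS, and 1 and 3 without fenoterol + LPS. The count of 70 peaks at least 2-fold apart in both mice was 275 with a pseudocount of 0.8, 0 with one of 20, 208 with no filter, 116 after quantile normalization and 1251 at 1.5-fold. The 33 named peaks kept their direction in all 1018 values under 31 alternatives. That was largely fixed by their choice on this same difference, and several alternatives change only its error and not the difference itself. It is therefore no test of these peaks. Depth limits single low peaks: a peak with 6 reads has a Poisson interval of 2.20 to 13.1.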

Other observations

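Peaks that voom called higher with fenoterol + LPS were spread over the genome. Chromosome 10 had the highest share of tested peaks called, 37 of 3810 (0.971%), and chromosome X, apart from Y with 0 of 32, the lowest, 5 of 1529 (0.327%). Differences at neighbouring peaks were weakly related, most at the shortest distances. The difference of mouse 1 at a peak and of mouse 2 at the next peak correlated with r = 0.0952 over 7185 pairs less than 1 kb apart, 0.0249 at 1 to 3 kb, 0.0234 at 3 to 10 kb, 0.014 at 10 to 50 kb, and 0.0012 over 8992 pairs more than 50 kb apart. The reverse pairing gave 0.0631, 0.0295, 0.0269, 0.0086 and -0.0064. These are descriptions across peaks.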
